A study of Homo sapiens with 4 samples.

Results

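The immunoglobulin heavy chain, kappa and lambda loci were followed by ATAC-seq, which counts transposase insertions in open chromatin, in TMD8 cells with and without silencing of the transcription factor IRF4. TMD8 is an established human line of the activated B-cell-like (ABC) type of diffuse large B-cell lymphoma. The intervals were chosen by position, with earlier results of these data known. They are those of the deposited hg38 tables with a midpoint in the following windows. These are chr14 105.5 to 106.9 Mb (IGH), chr2 88.8 to 90.3 Mb (IGK) and chr22 22.0 to 22.95 Mb (IGL). The chosen intervals number 341 of 73135, with 113 in IGH, 128 in IGK and 100 in IGL. There were 2 control libraries, from cells given a scrambled shRNA, and 2 shIRF4 libraries, from cells given an shRNA against IRF4. Both groups are the same line, and neither the time after silencing nor the shRNA sequence is given in the sources used here. Nothing in the labels says that the libraries of a group came from separate cultures. The p-values thus measure the spread between these libraries, which may be technical. Over the intervals, chi-square per degree of freedom was 1.04 for the control pair, near counting error alone, and 2.01 for the shIRF4 pair.

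A B cell assembles each immunoglobulin chain from variable (V), joining (J) and, in the heavy chain, diversity (D) segments, and joins the product to a constant gene. Transcription is driven by a promoter at each V segment and by enhancers near the constant genes: one between the heavy chain J segments and IGHM, others beyond IGHA1 and IGHA2, and others beside IGKC and beyond the lambda constant genes. IRF4 is known to bind light chain enhancers together with the ETS factors PU.1 and Spi-B at composite elements, and it is needed for plasma cell formation and class switching. Each locus was therefore divided at the middle of the gap between its J cluster and the nearest D segment (IGH) or V segment (IGK, IGL). The constant side, with the J cluster and the enhancers, held 55, 13 and 14 intervals in IGH, IGK and IGL, and the variable side held 58, 115 and 86. The positions of the enhancers themselves are not in the gene table used, so intervals are described by their distance to the nearest segment.

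Sequences are shown for the places where an interval lies over a RefSeq promoter or microRNA inside the loci. Of 36 promoter windows in the loci (250 bases before to 50 after a start, GRCh38.p14), 18 touched an interval and 8 touched one that changed. The first lies whole inside an interval near IGHV5-78 that fell, at chr14:106845561-106845860 on the plus strand. The next lies in the interval over IGKC that fell, at chr2:88855555-88855854 on the minus strand. The next has 165 of its bases in a pair of intervals at IGLV8-61 that both fell, at chr22:22098657-22098956 on the minus strand. The last lies whole in an interval between IGLV3-1 and the lambda J segments that rose, at chr22:22884550-22884849 on the minus strand, with its E-box in capitals. These 4 are starts of noncoding transcripts. Of the other 4 windows, a pair are nearby starts of LOC102724653, and those of PRAME, a coding gene, and a noncoding neighbour touch 1 interval that rose and are not shown, since PRAME is no immunoglobulin gene.
LOC124903399: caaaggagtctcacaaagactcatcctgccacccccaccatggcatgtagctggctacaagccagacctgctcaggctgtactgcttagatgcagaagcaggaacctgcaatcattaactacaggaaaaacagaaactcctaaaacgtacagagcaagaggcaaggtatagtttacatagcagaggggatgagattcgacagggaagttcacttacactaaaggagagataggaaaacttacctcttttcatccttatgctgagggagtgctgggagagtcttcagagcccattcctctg
LOC124907856: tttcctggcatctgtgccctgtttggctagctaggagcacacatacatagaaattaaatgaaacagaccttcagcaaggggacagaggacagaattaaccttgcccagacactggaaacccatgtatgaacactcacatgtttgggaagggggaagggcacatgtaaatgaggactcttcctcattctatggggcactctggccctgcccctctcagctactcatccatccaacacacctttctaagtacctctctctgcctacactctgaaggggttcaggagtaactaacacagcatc
LOC102724653: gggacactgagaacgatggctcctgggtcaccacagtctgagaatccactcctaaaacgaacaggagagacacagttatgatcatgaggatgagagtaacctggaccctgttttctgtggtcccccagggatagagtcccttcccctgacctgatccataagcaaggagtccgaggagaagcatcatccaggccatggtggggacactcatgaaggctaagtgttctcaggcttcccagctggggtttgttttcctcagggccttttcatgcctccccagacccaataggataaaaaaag
LOC105372948: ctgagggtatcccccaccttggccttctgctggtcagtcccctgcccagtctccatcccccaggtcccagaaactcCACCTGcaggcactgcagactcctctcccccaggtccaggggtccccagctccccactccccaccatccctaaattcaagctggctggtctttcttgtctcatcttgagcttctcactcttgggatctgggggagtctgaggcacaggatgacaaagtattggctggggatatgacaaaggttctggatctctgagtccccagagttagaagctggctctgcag

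Both strands of these windows were searched for 5 motifs. They were the octamer ATGCAAAT of immunoglobulin promoters, the ETS-IRF composite (GGAA, any 2 bases, GAAA), the interferon-response pair (GAAA, any 2 bases, GAAA), the E-box CAGGTG and the AP-1 site TGANTCA. Over all 35116 promoter windows of the same length, 1.77%, 2.82%, 3.57%, 20.6% and 7.71% held them, in that order. In the 4 windows shown, the only match was the E-box, read as CACCTG at bases 77 to 82 of the LOC105372948 window. The composite and the pair differ in 1 letter, so they cannot match at the same start on a strand. A match describes letters and is not a measured binding site.

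The intervals beside IGHM lie in the switch region, the repeat tract through which class switching starts, and 3 microRNA hairpins of that tract make the repeats visible. They are printed as RNA from the minus strand with the switch pentamers GAGCU and GGGCU in capitals. MIR4539 is at chr14:105857513-105857572, MIR4507 at chr14:105858124-105858175 and MIR4538 at chr14:105858165-105858242, so the last 2 share bases. They hold 6, 5 and 8 pentamers, and 4 of the 1560 hairpins of the RefSeq table (0.256%) hold at least 5, counted on the printed strand. The remaining one of these 4 is MIR4537 of the same tract, at chr14:105859484-105859553, with 10 pentamers. No interval touches it, so it is not printed.
MIR4539: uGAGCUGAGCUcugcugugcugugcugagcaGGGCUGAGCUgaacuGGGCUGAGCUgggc
MIR4507: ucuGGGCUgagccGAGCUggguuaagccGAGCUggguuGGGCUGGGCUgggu
MIR4538: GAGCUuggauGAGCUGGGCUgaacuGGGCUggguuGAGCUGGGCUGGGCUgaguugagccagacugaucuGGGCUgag
The mature microRNAs in intervals that changed lie within V segment regions, hsa-miR-5195-5p in the IGHV5-78 interval that fell and hsa-miR-650 in the IGLV2-8 interval that rose. They are given with the seed (bases 2 to 8) in capitals, as landmarks, since no small RNA was measured.
hsa-miR-5195-5p: aACCCCUAaggcaacuggaugg
hsa-miR-650: aGGAGGCAgcgcucucaggac

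The libraries held 9112860 to 17954924 counts. The lowest was shIRF4 replicate 2 and the highest was shIRF4 replicate 1. B cell marker genes had 383 to 421 CPM (counts scaled to library size with edgeR's TMM factors) at the ends of 5 of 6 genes. T cell markers had 1.93 to 4.29 CPM at 1 of 4 genes (CD3E, which was called higher), and myeloid markers had 8.29 to 9.52 CPM at 1 of 4 genes (CD14). Plasma cell markers had 46.4 to 59.3 CPM at 2 of 3 genes. Their part in the results was not tested. IRF4 itself had 15 intervals, of which 2 fell, which says nothing about its RNA or protein.

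Across the 3 loci, 55 of 339 tested intervals fell and 16 rose. A change is called where edgeR's quasi-likelihood test gave a Benjamini-Hochberg adjusted p below 0.05 over all 73028 tested intervals. Over those, 15.5% were called lower and 7.26% higher (22.8% in either direction), against 16.2% and 4.72% of the immunoglobulin intervals. The share called lower is thus near the background, and the median log2 fold change was -0.03, against 0.01 over all intervals. In 117 intervals (34.5%) both silenced libraries were below both controls and in 85 (25.1%) above them, against 30.3% and 28.7% of all intervals. By part, 19 of 82 constant-side intervals fell (8 without control replicate 1, 11 without control replicate 2) and 1 rose, while 36 of 257 variable-side intervals fell and 15 rose. That difference was not tested. Most changes were below 2-fold: only 9 intervals fell and 3 rose by that much or more. Leaving out 1 library moved the counts with the background. The 55 falls became 28 when control replicate 1 was omitted (8.26%, against 10.5% of all intervals), 33 when control replicate 2 was omitted (9.73% against 11.1%) and 34 when shIRF4 replicate 1 was omitted (10.03% against 8.80%). The 16 rises became 7 when control replicate 2 or shIRF4 replicate 1 was omitted and 28 when shIRF4 replicate 2 was. A fit without 1 library leaves a single library in its group and takes its spread from the other group. DESeq2 called 14 lower and 2 higher (4.13% lower), where 5.09% and 1.17% of all intervals were. With libraries scaled by their totals alone, 43 fell and 21 rose, so that 67.2% of the calls were losses in place of 77.5%.

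**Figure D1:**
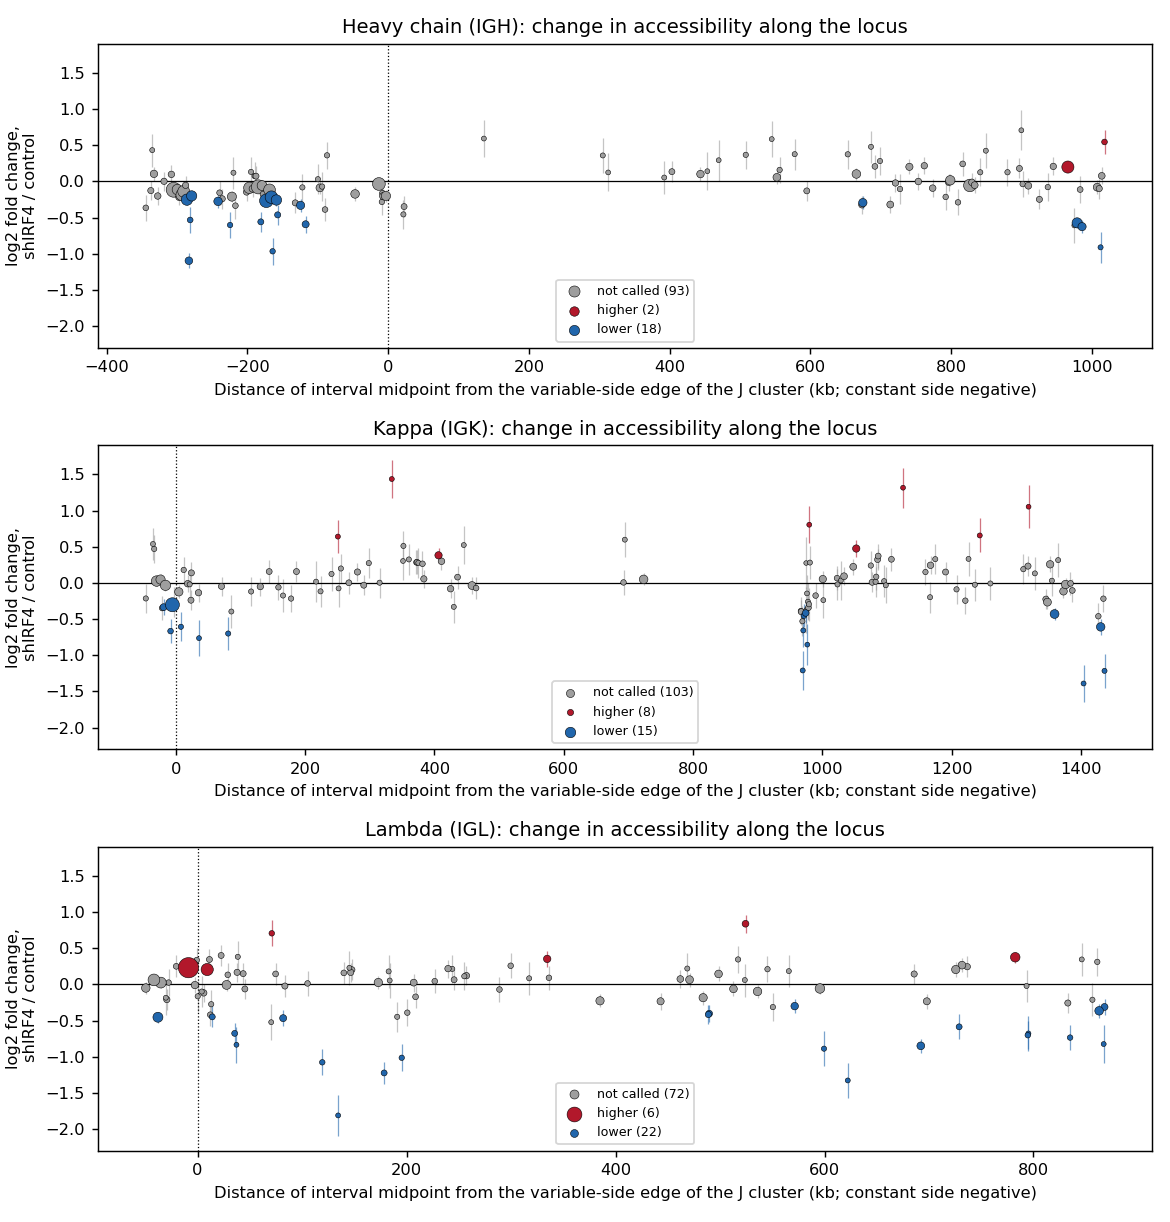
Log2 fold change of each tested interval (shIRF4 over control, bars are the SE) against its distance in kb from the variable-side edge of the J cluster, for IGH, IGK and IGL; point area follows mean CPM and colour the call. On the constant side of IGH (negative distances) 14 points are called lower and none higher, while calls in both directions are scattered over the variable sides.

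The constant side of the heavy chain locus lost accessibility at 14 of 55 intervals and gained it at none. For the gains, edgeR gave 0 intervals also at an unadjusted p below 0.05, and DESeq2 gave 0. The median log2 fold change was -0.17, and 45 of 55 values were negative. In 34 of 55 intervals (61.8%) both shIRF4 libraries were below both controls, against 30.3% of all tested intervals. Summed over the 55 intervals, the level was 1454 CPM in control replicate 1 and 1456 CPM in control replicate 2, and 1306 and 1263 CPM in shIRF4 replicates 1 and 2. Both silenced libraries were lower, by 11.7% in the mean. With 2 libraries against 2 an exact permutation test of one sum cannot go below p = 0.333, so no p is given for sums. The 55 intervals had a median of 11.6 CPM and 932 bp, against 6.21 CPM and 553 bp over all tested intervals. Smaller changes can be called at more counts, and shares were not compared at like levels. The 14 falls are 25.5% of the side, against 15.5% of all intervals. Without control replicate 1 they became 4 (7.27%, against 10.5% of all intervals), without control replicate 2 they became 9 (16.4% against 11.1%), and by DESeq2's Wald test 3 (5.45% against 5.09%), so the excess over the background was lost in the first and nearly so in the last.

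The deepest loss of this side lay beyond IGHA2, the last constant gene, on the side away from the J cluster, where an enhancer group of the locus is known to lie. The interval chr14:105581497-105583029, 3908 bp from IGHA2, had 27.9 and 25.8 CPM in the controls and 11.9 and 13.6 CPM after silencing. Both silenced libraries were near the same level and far below the controls, a log2 fold change of -1.10 ± 0.10 (SE, n = 2 against 2 libraries; edgeR adjusted p = 7.11e-08). It stayed called when any library was left out and by DESeq2. In the stretch from TMEM121 to IGHA2, 4 of 14 intervals fell and none rose, and the 4 were the ones nearest IGHA2. They are 28.6% of the stretch, against 15.5% of all intervals. Its median level was 19.0 CPM, against 6.21 CPM over all tested intervals. Only 1 of the 14 was called without control replicate 1 or by DESeq2, and 2 with scaling by totals. Their neighbour at chr14:105578436-105580536 had 62.7 and 58.8 CPM in the controls and 52.4 and 49.1 CPM in the shIRF4 libraries, without overlap (log2 fold change -0.25 ± 0.07). The interval with the most counts of the whole heavy chain locus, chr14:105558363-105562893, lay farther out at 24044 bp from IGHA2. It had 107.0 and 108.2 CPM in the controls and 103.6 and 94.4 CPM in the silenced libraries, and was not called (log2 fold change -0.12 ± 0.06).

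A second group of losses lay beyond IGHA1, the other alpha constant gene, which has a copy of the same enhancer group. From ELK2AP to IGHA1, 5 of 11 intervals fell and none rose, against 15.5% lower over all intervals. The 11 had a median of 39.8 CPM and 1673 bp, against 6.21 CPM and 553 bp over all tested intervals. Smaller changes can be called at more counts, so the shares are not compared at like levels. Without control replicate 1, or by DESeq2, 1 of the 11 was called, and 3 with scaling by totals. The strongest there was chr14:105700958-105701506, 5662 bp from IGHA1. It had 6.29 and 7.96 CPM in the controls and 3.58 and 3.82 CPM in the silenced libraries, a log2 fold change of -0.97 ± 0.19 (edgeR adjusted p = 0.000544). A far stronger peak, chr14:105691172-105693511, had 94.5 and 89.8 CPM against 80.5 and 71.7 CPM, which did not overlap (log2 fold change -0.27 ± 0.06). The alpha pair of regions are near copies of each other, and reads from near-identical sequence cannot be told apart in these counts.

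Over the constant genes, 4 of 11 intervals fell (36.4%, against 15.5% of all intervals) and none rose. Of these falls, 1, at IGHA1, is also among the 5 of the stretch before it. The 4 became 1 without control replicate 1, 2 without control replicate 2 and 0 by DESeq2. Over all intervals DESeq2 called 5.09% lower. The 4 falls lie over IGHG4, IGHA1 (a pair of intervals) and IGHG1, the genes of switched antibody classes. At IGHG1 the controls had 29.0 and 27.4 CPM and the silenced libraries 23.9 and 20.2 CPM, with all shIRF4 values lower (log2 fold change -0.33 ± 0.09). An interval 4493 bp from IGHG1, chr14:105747563-105748749, had 17.0 and 20.8 CPM in the controls and 13.2 and 11.6 CPM after silencing. Both silenced values were below both controls, a log2 fold change of -0.59 ± 0.12 (edgeR adjusted p = 0.000653). The intervals over IGHG2, IGHGP and IGHG3 were not called, with log2 fold changes from -0.21 to -0.07. The gamma genes are close paralogs, so counts may be split among them.

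From IGHM to the J cluster, the stretch with the intronic enhancer and the switch repeats printed above, none of 5 intervals was called in either direction. By unadjusted p below 0.05, edgeR gave 1 lower and 0 higher, and DESeq2 called 0. IGHM, the constant gene of IgM, had 70.6 and 76.9 CPM in the controls and 70.6 and 73.7 CPM after silencing, and the groups overlapped (log2 fold change -0.04 ± 0.06). The interval 24 bp from IGHJ6, the J segment nearest IGHM, had 36.6 and 36.2 CPM in the controls against 30.6 and 33.2 CPM, lower in both silenced libraries but not called (log2 fold change -0.20 ± 0.08, adjusted p = 0.07). At the interval over MIR4507 and MIR4538 the log2 fold change was -0.20 ± 0.10, and at that over MIR4539 it was -0.16 ± 0.15, neither called.

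**Figure D2:**
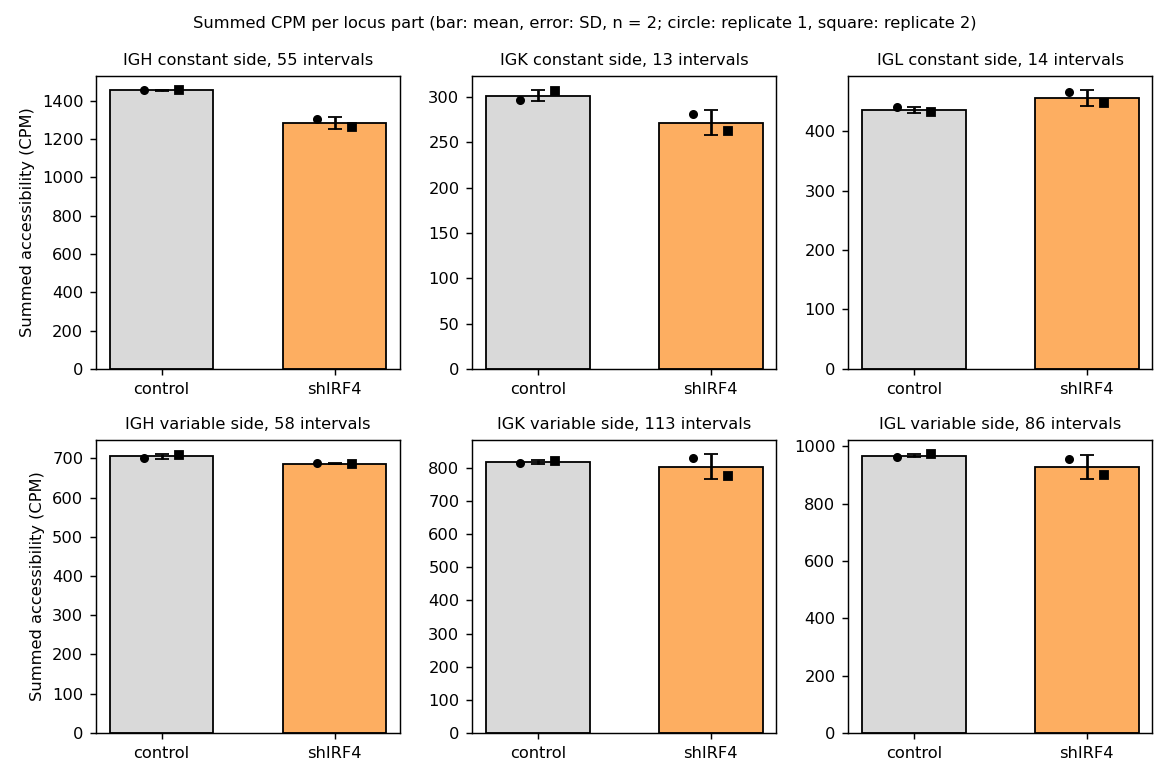
Summed CPM of the tested intervals of each locus part in the 4 libraries (bars, mean; error bars, SD over 2 libraries; circle, replicate 1; square, replicate 2). The silenced libraries sit below the controls on both sides of IGH, on the constant side of IGK and on the variable side of IGL, above them on the constant side of IGL, and overlap them on the variable side of IGK.

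On the variable side of the heavy chain, 4 of 58 intervals fell and 2 rose, 6.90% and 3.45% against 15.5% and 7.26% of all intervals. The 2 rises became 0 without control replicate 2 and 1 without shIRF4 replicate 1. The sum of the 58 was 700.2 and 709.7 CPM in the controls and 687.0 and 685.3 CPM after silencing. The silenced libraries were lower by 2.66% in the mean, a direction that turned when libraries were scaled by their totals alone (log2 ratio -0.039 against 0.0066). The 2 intervals of the D cluster, which supplies the diversity segments, were not called, with log2 fold changes of -0.46 and -0.35 and unadjusted edgeR p below 0.05 at both (DESeq2 called neither).

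Of the 6 calls on this side, 5 lay at its far end, among the V segments most distant from the J cluster. From IGHVIII-76-1 outward, a stretch chosen after the data were seen, 3 of 10 intervals fell and 2 rose. The interval chr14:106842776-106845959, 5153 bp from IGHV5-78 and over the LOC124903399 start printed above, had 50.3 and 51.3 CPM in the controls. It had 34.3 and 34.0 CPM in the silenced libraries, a wide gap beside the small spread of each pair (log2 fold change -0.57 ± 0.07, edgeR adjusted p = 3.73e-06). The next, chr14:106850808-106851945, lies over IGHV5-78, a V pseudogene, and MIR5195. It had 29.7 and 29.8 CPM in the controls and 20.4 and 17.7 CPM after silencing (log2 fold change -0.62 ± 0.09, edgeR adjusted p = 2.53e-05). Both kept their call without any 1 library and by DESeq2. The other falls were at 1651 bp from IGHVIII-82 (log2 fold change -0.91 ± 0.22) and 1123 bp from IGHV3-48 (-0.29 ± 0.09). The rises were over IGHVIII-76-1, from 61.4 and 59.7 CPM to 68.8 and 70.3 CPM (log2 fold change 0.20 ± 0.06), and at 3256 bp from IGHVIII-82 (0.55 ± 0.16). The variable-side interval with the most counts, over IGHVIII-67-3, had 70.3 and 72.5 CPM in the controls and 69.8 and 67.3 CPM after silencing and was not called (log2 fold change -0.06 ± 0.06). No interval was listed over 168.7 kb between chr14:106001523 and chr14:106170245, the longest such gap in the locus. Whether DNA is missing there was not measured.

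On the constant side of kappa, 4 of 13 intervals fell (30.8%, against 15.5% of all intervals) and none rose. At an unadjusted p below 0.05, edgeR gave 2 higher. DESeq2 called 0 in either direction, against 5.09% lower over all intervals. The sum was 297.3 and 306.3 CPM in the controls and 281.9 and 262.2 CPM after silencing, lower in both silenced libraries and by 9.86% in the mean. The falls depended on single libraries. Their share was below that of all intervals without control replicate 2, without shIRF4 replicate 1 and without shIRF4 replicate 2. It stayed above only without control replicate 1. The log2 ratio of the sum was -0.15, and from -0.19 to -0.10 when 1 library was left out.

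The main kappa interval, chr2:88854672-88858690, covers IGKC, the only kappa constant gene, and the LOC124907856 start. It had 96.2 and 103.5 CPM in the controls and 82.1 and 79.7 CPM in the silenced libraries, without overlap. The log2 fold change was -0.30 ± 0.06 (edgeR adjusted p = 0.000693), and the call was lost only by DESeq2 (adjusted p = 0.102). A small interval next to it, 3158 bp from IGKC on the side away from the J segments, had 7.55 and 8.11 CPM against 4.78 and 5.24 CPM (log2 fold change -0.67 ± 0.16). Another, at 13996 bp, had 15.0 and 17.0 CPM against 13.2 and 11.9 CPM (-0.34 ± 0.11). The other fall lay between the J and V clusters, 7714 bp from IGKJ1 (-0.61 ± 0.20). The larger intervals at 10733, 18293 and 24295 bp from IGKC, on the side of the 3′ enhancer, overlapped between groups and had log2 fold changes of -0.03, 0.05 and 0.03. On the side of IGKC away from the J segments, 2 of 9 intervals fell (22.2%, against 15.5% of all intervals) and none rose. The 9 had a median log2 fold change of -0.03. Calls were thus not at every interval of that side with many counts.

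On the variable side of kappa, 11 of 113 tested intervals fell and 8 rose, 9.73% and 7.08% against 15.5% and 7.26% of all intervals. Omitting control replicate 1 left 5 and 4, control replicate 2 left 7 and 4, shIRF4 replicate 1 left 5 and 3, and omitting shIRF4 replicate 2 gave 15 and 15, while DESeq2 called 2 and 1. Another 2 were not tested for low counts, with 0 to 7 and 5 to 7 counts per library. The sum was 813.2 and 820.9 CPM in the controls and 831.1 and 776.8 CPM after silencing, and the groups overlapped. The silenced libraries went to opposite sides of the controls.

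The kappa V segments occur as a proximal and an inverted distal copy. The largest rise among the immunoglobulin intervals lay over IGKV2-26, a V pseudogene, at chr2:89195942-89196153. It had 1.26 and 1.79 CPM in the controls and 4.72 and 3.16 CPM after silencing, low levels without overlap (log2 fold change 1.44 ± 0.27, edgeR adjusted p = 0.000378). Its distal copy IGKV2D-26 had 1.09 and 1.34 CPM against 2.77 and 3.60 CPM (log2 fold change 1.32 ± 0.28, edgeR adjusted p = 0.00125). Of 16 copy pairs with an interval on both members, 2 changed at both, IGKV2-26 and IGKV1-33, and 1 changed at one. IGKV1-33 and IGKV1D-33 had log2 fold changes of 0.38 ± 0.11 and 0.48 ± 0.11. IGKV1D-8, the variable-side kappa interval with the most counts, fell from 35.3 and 33.3 CPM to 26.2 and 24.3 CPM (log2 fold change -0.43 ± 0.08), while at IGKV1-8 the value was -0.05 ± 0.12. Reads from near-identical copies cannot be told apart, so agreement within a pair is not a second measurement.

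**Figure D3:**
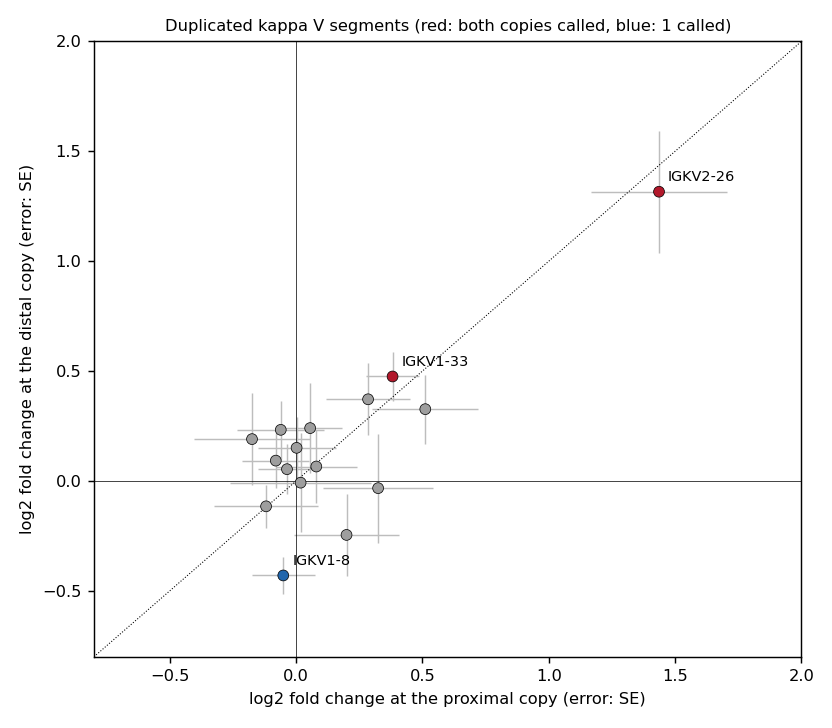
Log2 fold change (shIRF4 over control) at the proximal and distal copies of 16 duplicated kappa V segments, with the SE of each; the dotted line marks equal values. IGKV2-26 stands far from the other pairs at 1.44 and 1.32, and IGKV1-8 lies below the line with -0.05 and -0.43.

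The other kappa rises of the 5 largest were small in level, at 108 bp from IGKV2D-10 (log2 fold change 1.05 ± 0.29), 9960 bp from IGKV2D-40 (0.80 ± 0.26) and 4516 bp from IGKV1D-16 (0.66 ± 0.23). Of the 11 falls, 9 were among the 65 intervals that are not over a V segment. Between ABCD1P1 and LOC105374862, a stretch before the distal copy that was not set in advance, 5 of 16 intervals fell and 1 rose. These shares are 31.25% lower and 6.25% higher, against 15.5% and 7.26% of all intervals. The 5 falls became 0 without shIRF4 replicate 1 and by DESeq2 and 9 without shIRF4 replicate 2, while omitting control replicate 1 left 1 and omitting control replicate 2 left 2. Their sum was 77.0 and 77.4 CPM in the controls, 54.1 CPM in shIRF4 replicate 1 and 71.0 CPM in shIRF4 replicate 2, so replicate 1 carried most of the difference. The interval chr2:89831378-89831688 had 3.36 and 4.69 CPM in the controls and 1.41 and 2.40 CPM after silencing (log2 fold change -1.21 ± 0.27). The interval 12981 bp from IGKV2D-40 had -0.85 ± 0.28.

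Beyond the last distal V segment, 3 of 8 intervals fell, and 2 to 4 when 1 library was left out. At chr2:90265822-90266045 the controls had 3.52 and 4.46 CPM and the silenced libraries 1.30 and 1.96 CPM, a log2 fold change of -1.39 ± 0.26 (edgeR adjusted p = 0.000375). At chr2:90298114-90298536 it was -1.22 ± 0.24. The one of the 3 with the most counts, chr2:90291246-90293584, had 30.0 and 34.4 CPM against 18.6 and 25.1 CPM, lower in both silenced libraries (log2 fold change -0.61 ± 0.11, edgeR adjusted p = 0.000239). In the 1 Mb above the kappa window, 1 of 13 intervals fell (7.69%, against 15.5% of all intervals). All 13 log2 fold changes were negative, with a median of -0.31. Among the V segments, IGKV5-2 also fell, from 3.27 and 3.05 CPM to 1.63 and 2.29 CPM (-0.76 ± 0.25).

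On the constant side of lambda, 1 of 14 intervals rose and 1 fell. The sum was 439.9 and 432.7 CPM in the controls and 465.7 and 446.6 CPM after silencing, higher in both silenced libraries and by 4.56% in the mean, while the median of the intervals' log2 fold changes was -0.03. The sum follows 1 interval, chr22:22898047-22906807, which covers IGLJ2, IGLC2, IGLJ3 and IGLC3, joining segments and constant genes of the lambda chain. It had 183.1 and 182.9 CPM in the controls and 221.4 and 207.5 CPM after silencing, the most counts of any immunoglobulin interval. At 8761 bp it is also far longer than most. The log2 fold change was 0.23 ± 0.05 (edgeR adjusted p = 0.00172), and the call was lost only by DESeq2 (adjusted p = 0.163).

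The fall lay 7306 bp beyond IGLC7, the last lambda constant gene, on the side of the lambda enhancer. The interval chr22:22930219-22933183 had 46.9 and 47.7 CPM in the controls and 35.5 and 33.2 CPM after silencing, with a wide gap between groups (log2 fold change -0.45 ± 0.07, edgeR adjusted p = 8.37e-05). It kept its call without any 1 library and by DESeq2. Its neighbours on both sides were not called. The one 5305 bp from IGLC7 had 50.1 and 49.3 CPM in the controls and 51.5 and 49.3 CPM after silencing (log2 fold change 0.02 ± 0.07). The one at 11545 bp had 58.8 and 58.8 CPM against 60.6 and 62.4 CPM (0.06 ± 0.06). The loss beyond IGLC7 was called at 1 of 5 intervals.

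**Figure D4:**
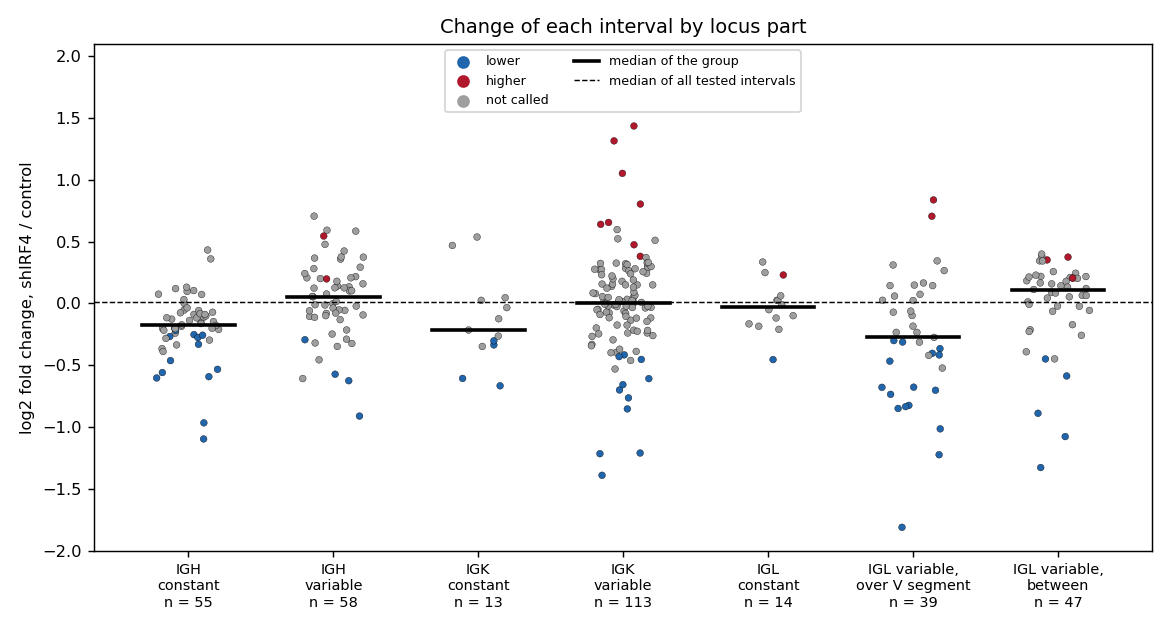
Log2 fold change (shIRF4 over control) of every tested interval by locus part, with the IGL variable side divided by overlap with a V segment; colour gives the call, black bars the group medians and the dashed line the median of all 73028 tested intervals. IGH and IGK constant sides and the IGL intervals over V segments have medians of -0.17, -0.21 and -0.27, below the dashed line at 0.01.

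On the variable side of lambda, 21 of 86 intervals fell and 5 rose, 24.4% and 5.81% against 15.5% and 7.26% of all intervals. The falls became 11 when control replicate 1 or shIRF4 replicate 1 was left out and 12 when control replicate 2 was, and DESeq2 called 6. The sum over the 86 was 963.6 and 972.2 CPM in the controls and 956.4 and 899.3 CPM after silencing. The losses were mostly at V segments: of 39 intervals over one, 16 fell and 2 rose, with a median log2 fold change of -0.27. Of 47 intervals between V segments, 5 fell and 3 rose, with a median of 0.11. The same division gave 1 lower and 1 higher of 35 over IGH V segments and 2 lower and 4 higher of 48 over IGK V segments. The sum over lambda V segments was 476.4 and 471.4 CPM in the controls and 427.2 and 401.1 CPM after silencing, lower in both silenced libraries by 12.6% in the mean. The division was chosen after the data had been seen, and its difference was not tested. Over lambda V segments 41.0% fell, against 15.5% of all intervals, and by DESeq2 10.3%, against 5.09%. The median log2 fold change of the 39 was from -0.28 to -0.23 when 1 library was left out. The 16 falls became 7 when control replicate 1 was left out, 10 when control replicate 2 was, and 8 when shIRF4 replicate 1 was, and DESeq2 called 4.

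The largest fall of all immunoglobulin intervals was at IGLV2-14, a functional V segment, at chr22:22759141-22759347. It had 4.78 and 3.50 CPM in the controls and 0.977 and 1.53 CPM after silencing, low in both silenced libraries (log2 fold change -1.81 ± 0.28, edgeR adjusted p = 4.60e-05). IGLVI-20, a V pseudogene, at chr22:22714870-22715557, had 12.1 and 11.2 CPM against 4.45 and 5.89 CPM (log2 fold change -1.22 ± 0.16, edgeR adjusted p = 4.63e-06). IGLV2-23, at chr22:22698206-22698566, had 7.30 and 6.25 CPM against 3.31 and 3.38 CPM (-1.01 ± 0.19). These lie among the V segments nearer to the J cluster. The interval 1500 bp from IGLV3-12 had 8.05 and 7.14 CPM against 3.64 and 3.49 CPM (-1.08 ± 0.18). The other of the 5 largest, 47000 bp from IGLV5-52, had 3.52 and 4.46 CPM against 1.57 and 1.64 CPM (-1.33 ± 0.25). In all 5 the groups were apart, and all 5 kept their call without any 1 library and by DESeq2. A stronger interval outside the 5, over IGLV11-55 and chosen after its values were seen, had 26.4 and 27.4 CPM in the controls and 13.8 and 16.7 CPM after silencing (log2 fold change -0.85 ± 0.10). The pair of intervals at IGLV8-61, over the LOC102724653 start, had -0.68 ± 0.24 and -0.70 ± 0.19.

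The lambda rises were IGLV7-46, IGLV2-8 and 3 intervals between V segments. IGLV7-46, a V segment, at chr22:22369070-22369691, had 8.56 and 10.9 CPM in the controls and 18.5 and 15.8 CPM after silencing, with both silenced values above the controls (log2 fold change 0.84 ± 0.13, edgeR adjusted p = 3.81e-05). IGLV2-8, which holds MIR650, had 4.70 and 4.31 CPM against 7.98 and 6.22 CPM (0.71 ± 0.18). The interval with the most counts on this side, chr22:22883102-22885973, lies 1710 bp from IGLV3-1, the last V segment, and over the LOC105372948 start. It had 60.4 and 62.9 CPM in the controls and 74.4 and 67.0 CPM after silencing, higher in both (log2 fold change 0.21 ± 0.07, edgeR adjusted p = 0.0287). The others, 11579 bp from IGLV8-61 and 20072 bp from IGLV2-34, had 0.38 ± 0.08 and 0.35 ± 0.11. The latter lies over the promoter of PRAME, which is no immunoglobulin gene.

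**Figure D5:**
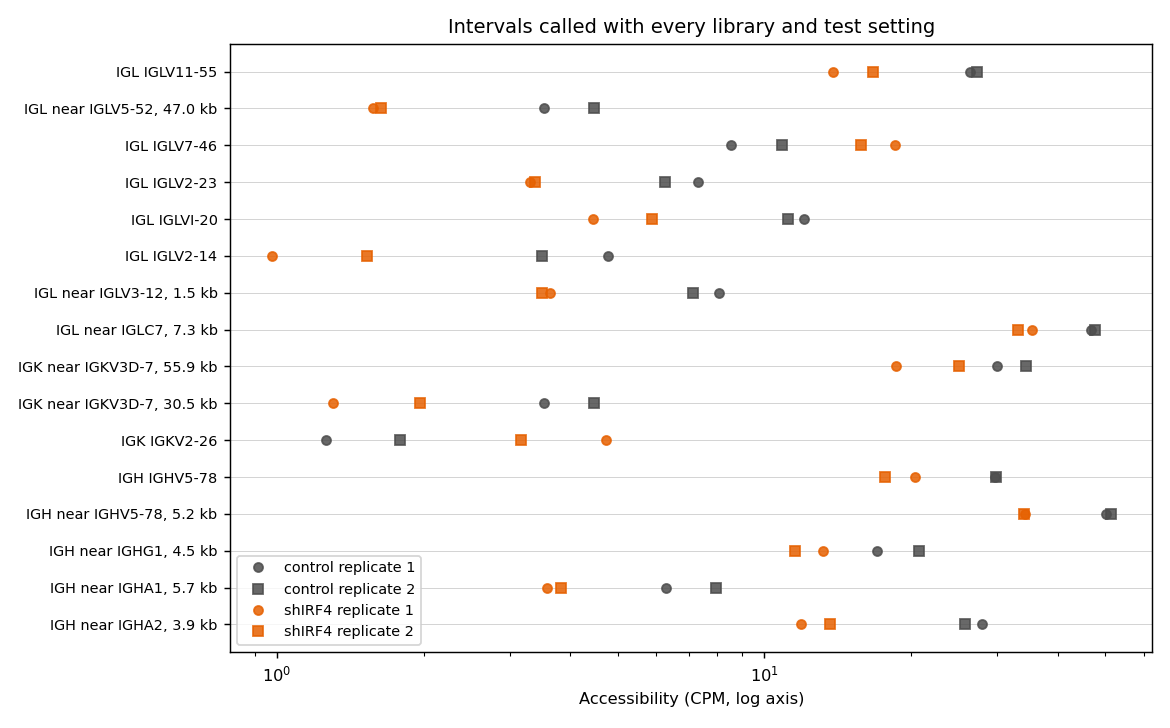
CPM in each of the 4 libraries (log axis) for the 16 immunoglobulin intervals called with every library left out in turn and under every other scaling, filter and test tried, labelled by the overlapping or nearest segment. In 14 of the 16 rows both shIRF4 points lie left of both control points, and at IGKV2-26 and IGLV7-46 they lie right of them.

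Of the 71 calls, 16 were made under each of the 8 other settings of scaling, filter, test or left-out library, 14 of them falls. They comprise 3 on the constant side of IGH, 2 on its variable side, 3 on the variable side of IGK, 1 on the constant side of IGL and 7 on its variable side. That the groups do not overlap at these 16 follows from how they were picked.

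Intervals beside the windows were counted in the same way. In the 1 Mb below IGH, 11 of 110 intervals fell and 7 rose, and in the 1 Mb below IGK 3 of 23 fell and 1 rose. In the 1 Mb below IGL 3 of 65 fell (4.62%) and 1 rose (1.54%), and in the 1 Mb above it 7 of 91 fell (7.69%) and 5 rose (5.49%). All these shares are below the 15.5% lower and 7.26% higher of all intervals. Copy number of the loci, which a lymphoma can alter, was not measured.

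The genes that act on these loci were followed in lists, with each interval given to the coding gene it lies in or to the nearest gene end within 100 kb. At 21 factors of immunoglobulin enhancers and promoters, 73 of 360 intervals fell (20.3%) and 25 rose (6.94%), against 15.5% and 7.26% of all intervals. Omitting control replicate 1 gave 46 and 16, omitting control replicate 2 gave 58 and 10, omitting shIRF4 replicate 1 gave 48 and 11, and DESeq2 gave 25 and 5. SPIB, the ETS partner of IRF4 in B cells, had 1 interval, chr19:50412594-50439112. This block is far longer than the median tested interval of 553 bp, so its change cannot be placed at SPIB itself. It fell from 1242 and 1212 CPM to 1103 and 1062 CPM (log2 fold change -0.18 ± 0.04). SPI1, which encodes PU.1, had 3 intervals with 1 rise and no fall. TCF3, the E protein that binds E-boxes of these enhancers, had 18 falls in 24 intervals. It thus held 18 of the 73 falls of the list, the most of any gene. Without TCF3 the share of falls in the list is near the 15.5% of all intervals. The TCF3 interval with the lowest p lay 12159 bp from the gene. EBF1 had 5 falls and 10 rises in 38. POU2AF1, the octamer coactivator, had 2 falls in 3.

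The other lists are to be read against 15.5% lower and 7.26% higher over all intervals. Of 25 intervals at 6 loop factors, which fold the loci for recombination, 5 rose (20.0%) and none fell. None was lower at an unadjusted edgeR p below 0.05, and DESeq2 called 0 lower and 1 higher. The rises with the lowest p at RAD21, NIPBL and WAPL lay 5926, 36654 and 21880 bp from the gene. At the ends of the 6 genes the sums overlapped, with 302.2 and 298.6 CPM in the controls and 314.1 and 297.3 CPM after silencing. The 5 rises became 3 without control replicate 2 or shIRF4 replicate 1. At 14 genes of recombination and mutation, 8 of 51 intervals fell (15.7%, near the share of all intervals) and 6 rose (11.8%). Without shIRF4 replicate 1 these were 5 and 1, and the rises were 3 without either control. At 8 partners of the immunoglobulin chains, 6 of 25 intervals fell and 1 rose (4 and 5 without shIRF4 replicate 2). With all libraries the shares were 24.0% lower and 4.0% higher. Of the falls, 5 were given to VPREB1, whose gene lies within the lambda locus, and are lambda intervals already counted. The other was at MZB1, a chaperone of antibody assembly, from 60.4 and 60.3 CPM to 49.2 and 49.97 CPM (log2 fold change -0.28 ± 0.07). JCHAIN, IGLL1 and RAG2 had no interval.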

How the data were processed

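ATAC-seq counts of 4 TMD8 libraries, 2 per group, were used. The authors deposited raw read counts per interval, made with featureCounts v2.0.0 per the file headers, which record counting of the 5′ read end, fractional counting of reads with several alignments and the skipping of reads marked as duplicates. All deposited counts are whole numbers, so how reads with several alignments entered cannot be read from them, and this touches the repeated V segments and constant genes most. Per the submitters' processing notes, coordinates are hg38. Which aligner and peak caller were used, and how intervals were merged, is not given in the sources used here.

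All 73135 intervals were fitted together with edgeR 4.0.16 (filterByExpr, which left 73028, TMM factors of 0.981 to 1.03, quasi-likelihood F-test, Benjamini-Hochberg threshold 0.05, R 4.3.3). The script was tested on simulated data. The SE is the log2 fold change over the root of F. CPM values are TMM-scaled. DESeq2 1.42.0, other scalings, no filter, left-out libraries and the replicate number as a block were alternatives. Segments and genes came from RefSeq GRCh38.p14. Counting error alone limits values near 1 CPM, about 9 to 18 counts per library.

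Named were every constant-side interval (grouped where many), each locus' variable-side calls (the 5 largest per direction where more), and the interval with the most counts per part. Members and lists were chosen with earlier results of these data known. Some intervals beyond this rule are named for their copies, promoters or stability, after their values were seen.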

Additional observations from a re-analysis of the deposited data

How the results depend on the processing

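Of the 71 calls, 59 were kept with libraries scaled by totals alone, 69 with DESeq2 size factors, 71 without the filter and 16 by DESeq2's Wald test, which called 14 lower and 2 higher in all (4 and 0 on the constant sides, 10 and 2 on the variable sides), where 5.09% and 1.17% of all intervals were called lower and higher. Leaving out 1 library gave 28 to 60 lower and 7 to 28 higher over the 3 loci, 8 to 19 lower and 1 to 1 higher on the constant sides, and 20 to 41 lower and 6 to 27 higher on the variable sides. Scaling by totals moved the median of all intervals from 0.01 to 0.06. It gave log2 ratios of the summed CPM of -0.13 for the IGH constant side, 0.0066 for the IGH variable side (a turn from -0.039), 0.11 for the IGL constant side and -0.015 for the IGL variable side. The median over intervals in place of the sum gave 0.055 for the IGH variable side, -0.21 for the IGK constant side, -0.030 for the IGL constant side and 0.019 for the IGL variable side, of which the IGH variable and both IGL values turned sign; the sum weights intervals with many counts. The IGK variable side, whose groups overlap, turned from -0.023 to 0.023 with totals, 0.0066 as a median and 0.023 without shIRF4 replicate 2. Midpoint and whole-interval membership gave the same intervals, and leaving out 6 intervals at other coding genes gave 15 higher. The replicate numbers do not pair the libraries (correlation of same-numbered deviations -0.03). With the replicate block, 55 fell and 14 rose, and 67 of the 71 calls were kept. Low counts limit the short V segment intervals.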
